A study of Homo sapiens with 12 samples.

Results

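The genes described here are the working parts of mitosis and of chromosome segregation, measured in LNCaP cells, an androgen-sensitive human prostate cancer cell line, without drug or with metformin or AICAR. The rule takes genes by symbol and uses no measured value, but the list was drawn up with earlier results of these data known. Its counts and medians are therefore descriptions and no test of the list. The list holds 55 genes in 9 roles, from the cyclins that drive entry into mitosis to the condensin subunits that compact the chromosomes. Probes of the array carried the current or an older symbol of 53 of them, out of 14401 named genes. Probes of FOXM1 and NCAPG were not analysed here. Against control cells, 17 of the 53 genes were lower with metformin and none was higher, and 11 were lower and 1 was higher with AICAR. Of all transcripts tested, 1.23% were lower and 1.5% higher with metformin, and 2.89% were lower and 0.456% higher with AICAR. These transcripts include 10145 probes without a gene name. Over the 14401 named genes alone, 1.67% were lower and 1.9% higher with metformin, and 3.36% were lower and 0.576% higher with AICAR.

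Cells enter mitosis when cyclin B and CDK1 become active, and the Aurora and Polo-like kinases then build the spindle and tie it to the kinetochores, the protein plates on the centromeres. The spindle checkpoint holds the cell in metaphase until every kinetochore is attached. The anaphase-promoting complex then marks cyclin B and securin for destruction, separase cuts the cohesin that joins the sister chromatids, and the central spindle directs cytokinesis. Most of these genes are transcribed late in the cell cycle. A repressor complex named DREAM keeps them low in resting cells, and the same MuvB core, joined by B-MYB (MYBL2) and FOXM1, turns them on in G2. MuvB contacts a short promoter element called the cell cycle genes homology region (CHR), often next to CCAAT boxes, which NF-Y binds.

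The cells were untreated, or treated with 5 mM metformin, a biguanide that inhibits complex I of the respiratory chain, or with 5 mM AICAR, a nucleoside whose phosphorylated form activates AMPK, the energy-sensing kinase. The labels give 24 h for both drugs, whereas a legend of the study gives a shorter time for metformin. Each of the 3 pairwise comparisons was made in 2 independent cultures on 2-colour arrays, and each was repeated with the Cy3 and Cy5 dyes exchanged, which makes 12 arrays of 27648 features and 4 arrays per comparison. The same 6 RNA extracts served all comparisons, so metformin against control, AICAR against control and metformin against AICAR are not independent of one another. The arrays record a cell population, so that fewer dividing cells and less mRNA per dividing cell cannot be told apart. They hold ratios and no levels, so markers of the LNCaP line could not be checked.

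The deposited ratios were taken to be log2 values with Cy5 in the numerator, which is likely but not stated. This rests on the convention of limma and on the dyes in the labels. Read in this way, DDIT3, a transcript induced by endoplasmic reticulum stress, lay between 4.50 and 5.90 on the 4 arrays of metformin against control. The energy stress transcripts DDIT4 (3.05 to 3.56) and SESN2 (1.22 to 3.28) were positive as well, and PPIF was negative (−2.06 to −1.03). Array medians lay between −0.0417 and 0.051, and dye-swap partners correlated across all transcripts at −0.722 to −0.424 before their signs were turned. Over the 53 genes, the turned ratios of the swap partners of metformin against control correlated at 0.298 in culture 1 and at 0.725 in culture 2. By slide number 3 arrays stand apart, namely both metformin arrays and 1 AICAR array of culture 1 against control.

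The promoters of the genes carry what the list was not chosen by. RefSeq windows of GRCh38.p14, 300 bases long and reaching from 250 bases before to 50 bases after an annotated start, matched 47 of the 55 genes with 63 windows. A CHR, searched as TTTGAA or TTCGAA on both strands, stood in 42 windows (66.7%), against 16.4% of all 35116 windows. CCAAT, also on both strands, stood in 43 (68.3%, against 34.6%), and both stood together in 33 (52.4%, against 6.38%). An E2F element, searched as TTTCCCGC, TTTCGCGC, TTTGCCGC or TTTGGCGC, was rarer, in 7 windows (11.1%, against 3.31%). Some genes have several windows, and some of these overlap, so the windows are not independent. A match is only a run of letters.

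A few promoters show how the elements lie. They were picked by the motif, so they do not show how common it is. CKS2, BUB1B and ESPL1 had the smallest metformin p of their roles in limma among genes with a CHR. NCAPH had the smallest among genes lacking it. CCNB1 had a smaller p than CKS2 but no CHR in its window. The following windows belong to genes that were lower with metformin, CKS2, BUB1B, ESPL1 and NCAPH, all on the plus strand, at chr9:89310945-89311244, chr15:40160819-40161118, chr12:53268049-53268348 and chr2:96335516-96335815 of GRCh38.p14. Capitals mark CHR and CCAAT matches, where TTCAAA and ATTGG are the elements read from the other strand. The first has a CHR and 3 CCAAT boxes, the second a CHR alone, the next a CCAAT box just before its CHR, and the last a CCAAT box without a CHR.
CKS2: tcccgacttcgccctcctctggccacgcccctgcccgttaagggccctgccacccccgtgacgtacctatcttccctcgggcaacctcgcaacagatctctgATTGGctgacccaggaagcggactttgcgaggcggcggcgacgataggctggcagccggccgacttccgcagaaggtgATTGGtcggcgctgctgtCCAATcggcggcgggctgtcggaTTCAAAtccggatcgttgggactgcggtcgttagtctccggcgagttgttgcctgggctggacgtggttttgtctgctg
BUB1B: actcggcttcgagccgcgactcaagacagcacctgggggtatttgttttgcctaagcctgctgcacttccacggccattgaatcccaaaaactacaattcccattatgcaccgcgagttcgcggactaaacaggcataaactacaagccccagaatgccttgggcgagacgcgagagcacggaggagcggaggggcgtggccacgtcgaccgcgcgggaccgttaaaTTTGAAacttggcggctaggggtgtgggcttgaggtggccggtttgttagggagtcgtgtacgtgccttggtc
ESPL1: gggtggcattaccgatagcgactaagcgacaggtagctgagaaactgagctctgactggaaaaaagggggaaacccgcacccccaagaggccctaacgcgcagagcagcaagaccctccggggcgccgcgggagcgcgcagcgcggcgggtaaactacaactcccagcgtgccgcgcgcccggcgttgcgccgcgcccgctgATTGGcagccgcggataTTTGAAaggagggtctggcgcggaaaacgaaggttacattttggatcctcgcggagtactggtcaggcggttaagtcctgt
NCAPH: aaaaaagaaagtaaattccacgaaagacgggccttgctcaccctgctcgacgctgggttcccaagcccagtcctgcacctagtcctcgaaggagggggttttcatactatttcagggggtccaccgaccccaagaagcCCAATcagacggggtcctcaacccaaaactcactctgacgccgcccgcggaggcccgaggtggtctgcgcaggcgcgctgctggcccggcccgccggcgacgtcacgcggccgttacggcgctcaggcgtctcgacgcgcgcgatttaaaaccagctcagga

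In these windows the CHR began 29 bases before the start in CKS2, 23 bases before it in BUB1B and 31 bases before it in ESPL1. Over all member windows, 38 of 52 CHR matches (73.1%) began within 50 bases of the start, at a median position of −29, and 61 of 89 CCAAT matches (68.5%) began between positions −130 and −30, at a median position of −79. A site that lies in overlapping windows of a gene was counted in each of them. The histogram of positions shows the CCAAT matches upstream of the CHR matches. The share with a CHR was no higher among the genes that passed the test. Of the genes lower with metformin that had a window, 10 of 16 held a CHR, as did 26 of the 30 that did not pass. For AICAR the counts were 7 of 10 lower genes and 28 of 35 that did not pass.

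**Figure D1:**
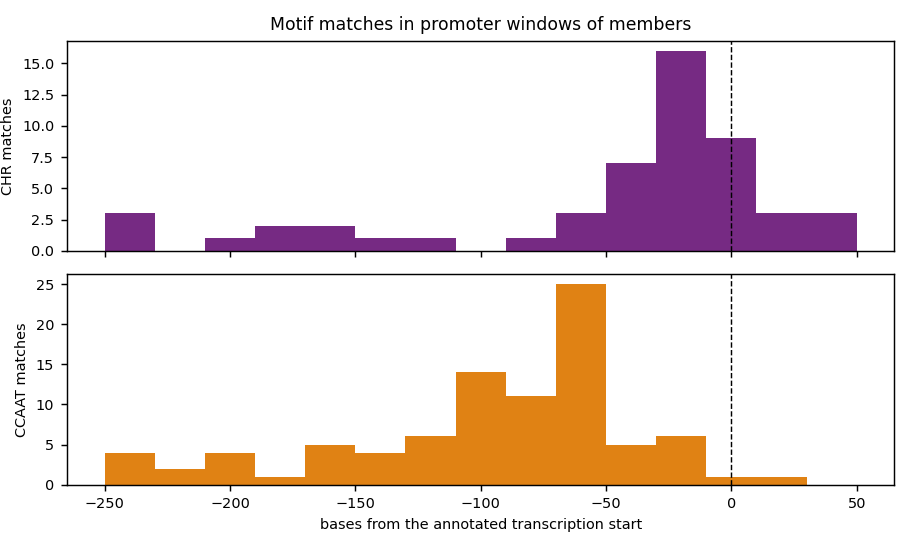
Number of CHR matches (upper panel) and CCAAT matches (lower panel) per 20 bases in the 63 promoter windows of the genes, by distance in bases from the annotated transcription start (dashed line). CHR matches gather near the start, with a median position of −29, and CCAAT matches lie further upstream, with a median of −79.

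With metformin the list as a whole lay below control. The fitted log2 ratio was below 0 for 51 of the 53 genes, with a median of −0.70 (−0.60 in culture 1 and −0.75 in culture 2), against a median of −0.00015 over all 24546 transcripts tested. The ratio was below 0 on all 4 arrays for 42 genes (79.2%), as it was for 12.5% of all transcripts and 14.2% of named genes. A gene passed with an adjusted p below 0.05 in limma's moderated test, adjusted by Benjamini-Hochberg over all transcripts, and a log2 ratio beyond 0.7 in size. By this rule 17 genes were lower and 0 were higher, against 1.23% and 1.5% of all transcripts. At an unadjusted p below 0.05 in limma there were 40 genes. The share of all transcripts at this cut was not counted, so this count and the like counts below stand without a background. The spread of a gene was estimated once from all 6 extracts, those with AICAR included. Its standard error (SE) is therefore the same in every comparison and is not the spread of metformin against control alone. The 17 calls come from the fit to all 6 extracts. Fits with an extract left out, or with direct arrays only, keep 1 residual degree of freedom, so a lost call there does not show a changed ratio. With an extract or a culture left out, the median ratio of the genes lay between −0.81 and −0.60. In limma fits that used only the direct arrays of the comparison, or that left out any 1 of the 6 extracts, 0 genes passed, while 41 genes and 33 to 42 genes had an unadjusted p below 0.05. Without the 3 arrays that stand apart, 7 genes passed.

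**Figure D2:**
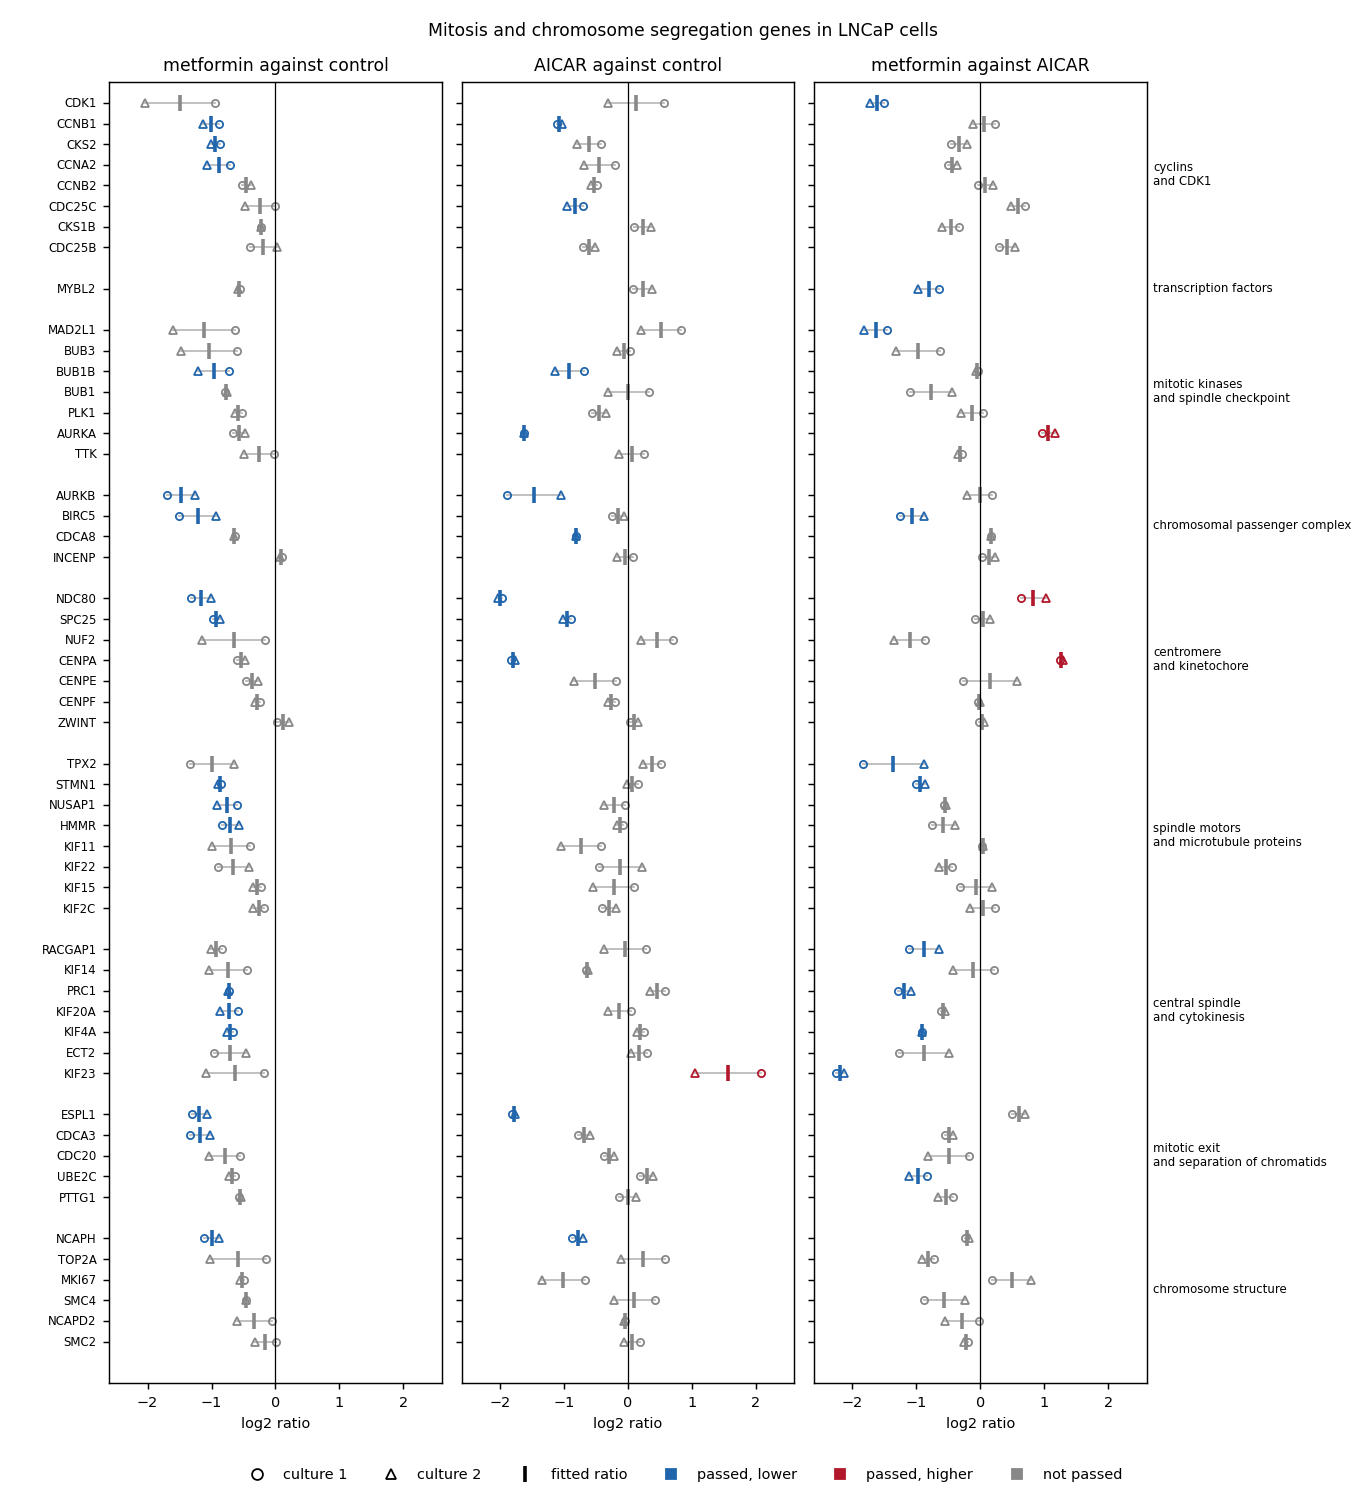
Fitted log2 ratio (vertical tick) of each of the 53 measured genes, grouped by role, with the values of culture 1 (circle) and culture 2 (triangle), for the 3 comparisons. Blue genes passed as lower and red genes as higher. With metformin 17 genes are blue and 51 ticks lie left of 0, whereas with AICAR 11 are blue, 1 is red and 35 lie left of 0.

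Among the 8 cyclins and partners of CDK1, 3 were lower with metformin, and the other 5 had ratios below 0. CCNB1 encodes cyclin B1, which activates CDK1 at the entry into mitosis. Its log2 ratio of metformin to control was −0.57 and −0.94 in culture 1 and −1.13 and −1.25 in culture 2. All 4 arrays lay below control, and the fitted ratio was −1.01 ± 0.107 (SE, 2 cultures; limma, adjusted p = 0.0215). CKS2, a small subunit bound to CDK1, had ratios of −1.48 and −0.22 in culture 1 and −1.38 and −0.67 in culture 2. In both cultures the array with metformin in Cy5 was the lower one, and the dye-swap means gave −0.94 ± 0.113 (limma, adjusted p = 0.0275). CCNA2, cyclin A2, also fell, by 0.89 on the log2 scale.

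CDK1, the kinase itself, had the lowest ratio of the list, −1.50 ± 0.272, and did not pass (limma, adjusted p = 0.0628). Its ratios were −0.97 and −0.85 in culture 1 and −2.27 and −1.95 in culture 2. All 4 were below 0, but the cultures were about as far apart as culture 1 was from control. CCNB2 was at −0.45. The phosphatases that switch CDK1 on, CDC25B and CDC25C, were at −0.19 and −0.24, and CKS1B was at −0.23. MYBL2, or B-MYB, the only transcription factor of the list measured here, had ratios of −0.60, −0.53, −0.54 and −0.61. These 4 values hardly differed, and the fitted ratio was −0.57 ± 0.109 (limma, adjusted p = 0.0685).

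Of the 7 mitotic kinases and checkpoint genes, BUB1B alone passed with metformin. It encodes BubR1, a subunit of the mitotic checkpoint complex that restrains the anaphase-promoting complex. Its ratios were −0.79 and −0.61 in culture 1 and −1.41 and −1.02 in culture 2, all below 0, with a fitted value of −0.97 ± 0.141 (limma, adjusted p = 0.0386). AURKA encodes Aurora A, the kinase of the spindle poles, and its ratios were −0.53, −0.68, −0.35 and −0.54. Its adjusted p was 0.0445 in limma, but at −0.56 ± 0.087 the ratio was too small to pass. The checkpoint genes MAD2L1 (−1.12) and BUB3 (−1.04) had larger ratios and did not pass, with adjusted p-values of 0.0844 and 0.0904 in limma. In both, culture 2 lay far below culture 1, at −1.60 against −0.63 for MAD2L1 and at −1.48 against −0.60 for BUB3. The kinases BUB1 (−0.77), PLK1 (−0.58) and TTK (−0.26) did not pass either.

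The chromosomal passenger complex corrects faulty attachments and then moves to the central spindle. Its kinase AURKB, Aurora B, had ratios of −1.58 and −2.09 in culture 1 and −1.21 and −1.40 in culture 2. It was far below control on every array, at −1.47 ± 0.203 (limma, adjusted p = 0.035). BIRC5, survivin, fell as well, with ratios of −1.38, −1.75, −0.93 and −0.92 and a fitted value of −1.22 ± 0.149 (limma, adjusted p = 0.028). Both genes were lower in culture 1 than in culture 2. CDCA8, borealin, had ratios between −0.72 and −0.47 and a fitted value of −0.64 ± 0.071, with an adjusted p of 0.0235 in limma but a ratio too small to pass. INCENP, the scaffold of the same complex, was at 0.08, with arrays between −0.13 and 0.34.

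At the kinetochore, NDC80 and SPC25, subunits of the NDC80 complex that grips the microtubules, were lower with metformin. NDC80 had ratios of −1.38 and −1.33 in culture 1 and −1.06 in both arrays of culture 2. The swap partners hardly differed, and the fitted ratio was −1.17 ± 0.118 (limma, adjusted p = 0.0194). SPC25 had −1.37 and −0.53 in culture 1 and −1.35 and −0.55 in culture 2, and its fitted ratio of −0.92 ± 0.089 rests on swap means that differed less than the partners (limma, adjusted p = 0.0179). Another subunit, NUF2, was at −0.65 and did not pass, with −0.16 in culture 1 and −1.14 in culture 2. CENPA, the histone H3 variant that marks the centromere, was at −0.53, with an adjusted p of 0.0378 in limma and a ratio too small to pass. The motor CENPE (−0.36), CENPF (−0.29) and ZWINT (0.12) did not pass, and the 2 probes of CENPF gave −0.03 and −0.54.

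Among 8 spindle motors and microtubule proteins, STMN1, NUSAP1 and HMMR were lower. STMN1, stathmin, which destabilizes microtubules, had ratios of −0.98, −0.77, −0.67 and −1.13, all below 0, and a fitted value of −0.87 ± 0.083 (limma, adjusted p = 0.0176). NUSAP1, which bundles spindle microtubules, had ratios of −0.70 and −0.50 in culture 1 and −0.89 and −0.95 in culture 2, with −0.76 ± 0.110 after fitting (limma, adjusted p = 0.0384). This is a mean over 2 probes, at −0.68 and −0.84, neither of which passed on its own. HMMR fell by 0.71. TPX2, the activator of Aurora A on the spindle, was at −0.99 and did not pass, with −1.33 in culture 1 and −0.64 in culture 2. Of the kinesins, KIF11, which pushes the spindle poles apart, was at −0.70, KIF22 at −0.66, KIF15 at −0.29 and KIF2C at −0.26, and none of these passed.

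For the central spindle and cytokinesis genes, all 7 fitted ratios of metformin to control lay between −0.93 and −0.63, and all were below 0 on every array. Single arrays spread far more widely, from −1.47 for RACGAP1 to −0.01 for KIF14. KIF4A, a chromokinesin that limits the growth of central spindle microtubules, had ratios of −0.49, −0.83, −0.85 and −0.77, and a fitted value of −0.71 ± 0.076 (limma, adjusted p = 0.0217). PRC1, which crosslinks antiparallel microtubules and binds KIF4A, had −0.12 and −1.19 in culture 1 and −0.44 and −1.13 in culture 2. The arrays of each dye swap stood far apart while the culture means, −0.72 and −0.75, did not, and the fitted ratio was −0.73 ± 0.091 (limma, adjusted p = 0.0284). KIF20A, which carries Aurora B to the midzone, also fell, by 0.72. Both subunits of centralspindlin, RACGAP1 (−0.93) and KIF23 (−0.63), the RhoA activator ECT2 (−0.71) and KIF14 (−0.75) did not pass. KIF23 was at −0.18 in culture 1 and −1.08 in culture 2, KIF14 at −0.45 and −1.04, and ECT2 at −0.97 and −0.45.

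For mitotic exit, ESPL1 and CDCA3 were lower. ESPL1 encodes separase, the protease that opens cohesin, and had ratios of −1.50 and −1.04 in culture 1 and −1.23 and −1.13 in culture 2. All 4 were beyond −1, and the fitted ratio of −1.19 ± 0.093 had the smallest adjusted p of the list (0.0133, limma). CDCA3, which promotes entry into mitosis and is itself destroyed through the anaphase-promoting complex, had −1.21 and −1.60 in culture 1 and −0.94 and −1.16 in culture 2, with −1.18 ± 0.10 after fitting (limma, adjusted p = 0.0142). Securin, PTTG1, which holds separase inactive, was at −0.55, and CDC20, the activator of the anaphase-promoting complex, at −0.80. Neither passed. UBE2C, the ubiquitin-conjugating enzyme of that complex, was at −0.68 (adjusted p = 0.0374 in limma) as a mean of 3 probes, at −1.16, −0.50 and −0.39, so the probes disagree in size.

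Of 6 chromosome structure genes, only NCAPH, the kleisin subunit of condensin I, passed with metformin. Its ratios were −1.17, −1.05, −0.83 and −0.94, close together and all below 0, and the fitted value was −0.99 ± 0.089 (limma, adjusted p = 0.0156). The core condensin subunits SMC4 (−0.46) and SMC2 (−0.16) and the subunit NCAPD2 (−0.33) had smaller ratios and did not pass. TOP2A, the topoisomerase that untangles sister chromatids, was at −0.15 in culture 1 and −1.02 in culture 2. MKI67, the Ki-67 protein that coats mitotic chromosomes and is used as a marker of proliferation, had ratios of −0.67, −0.62, −0.80 and −0.44. All 4 were below 0, but the fitted ratio of −0.52 ± 0.183 did not pass (limma, adjusted p = 0.244). Its cultures were at −0.48 and −0.56, whereas with AICAR, which shares this SE, they were at −0.67 and −1.35.

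**Figure D3:**
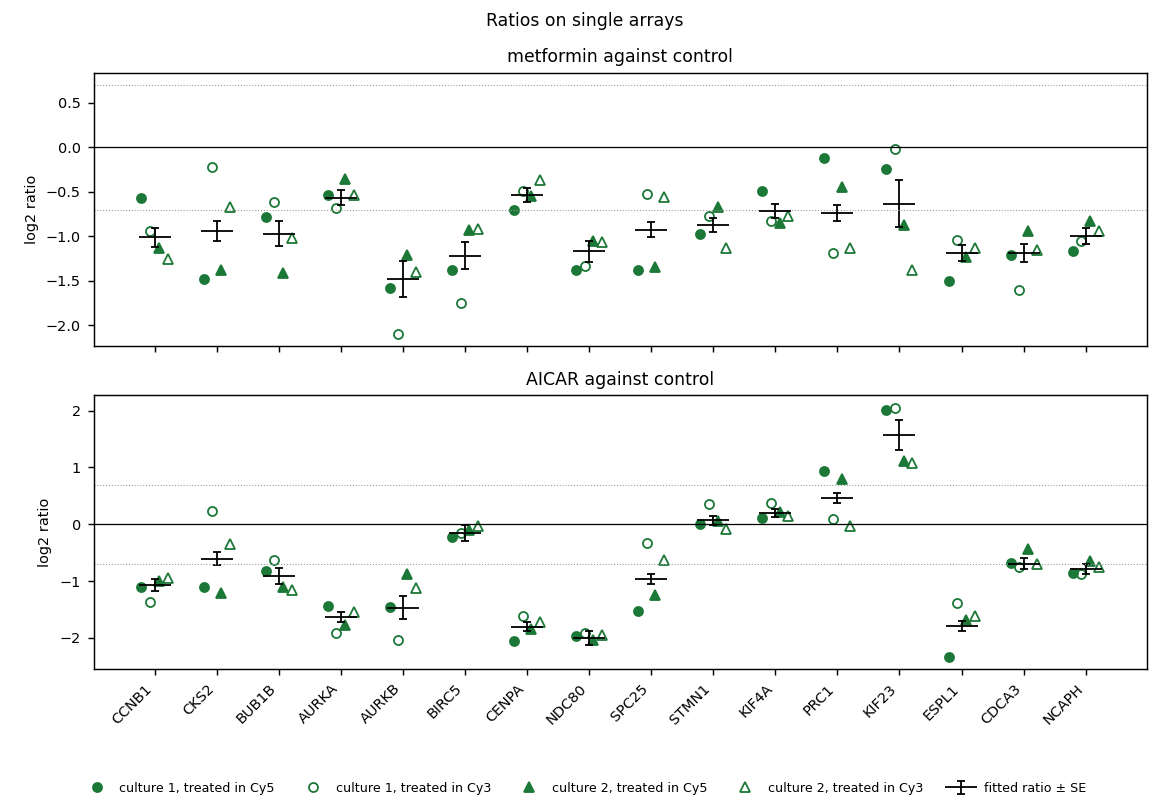
Log2 ratio on each of the 4 arrays for 16 of the genes, with metformin (upper panel) and AICAR (lower panel) against control. Circles are culture 1 and triangles culture 2, filled when the treated sample was in Cy5 and open when it was in Cy3, bars give the fitted ratio ± SE, and dotted lines mark log2 ratios of 0.7 and −0.7. Every point of the upper panel lies below 0, whereas in the lower panel KIF23 stands above 0 on all 4 arrays, from 1.08 to 2.05, and NDC80 near −2.00.

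With AICAR a few genes fell deeply and the centre of the list lay closer to control. Its median ratio to control was −0.15 over the 53 genes (−0.14 in culture 1 and −0.31 in culture 2), against 0.04 over all transcripts. The fitted ratio was below 0 for 35 genes, and 22 genes (41.5%) were below 0 on all 4 arrays, as were 13.3% of all transcripts. By the same test 11 genes were lower, whereas 2.89% of all transcripts were, and 1 was higher, whereas 0.456% of all transcripts were. In limma fits without control 1, AICAR 1 or AICAR 2 no gene passed, with 25, 27 and 23 genes at an unadjusted p below 0.05. Without control 2 the count was 6, without either metformin extract it was 12 and 10, and without the 3 arrays that stand apart it was 7.

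The deepest decreases with AICAR were in kinetochore, centromere and Aurora kinase genes and in separase. NDC80 had ratios of −1.96, −1.91, −2.03 and −1.95, which hardly differed among the 4 arrays. Its fitted log2 ratio of −2.00 ± 0.118 was 4.0-fold below control (limma, adjusted p = 0.0074). CENPA had −2.05 and −1.62 in culture 1 and −1.84 and −1.72 in culture 2, all far below 0, and a fitted value of −1.80 ± 0.077 (limma, adjusted p = 0.00692). AURKA had −1.44 and −1.91 in culture 1 and −1.77 and −1.54 in culture 2, and its culture means, −1.62 and −1.63, were nearly equal. The fitted value was −1.63 ± 0.087 (limma, adjusted p = 0.00692). ESPL1 was lowest on one array of culture 1, at −2.33, and lay at −1.38, −1.68 and −1.62 on the others, with −1.79 ± 0.093 after fitting (limma, adjusted p = 0.00692).

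AURKB was lower with AICAR too, at −1.45 and −2.04 in culture 1 and −0.88 and −1.12 in culture 2. Culture 1 was again the lower one, and the fitted value was −1.47 ± 0.203 (limma, adjusted p = 0.0302). Its partner CDCA8 had ratios of −1.10, −0.64, −0.81 and −0.81 and a fitted value of −0.81 ± 0.071 (limma, adjusted p = 0.0119), as a mean of 2 probes at −0.95 and −0.67. SPC25 had −1.53, −0.33, −1.25 and −0.62, with the treated sample in Cy5 lower in both cultures, and a fitted value of −0.96 ± 0.089 (limma, adjusted p = 0.0131). The other members of these groups did not pass, with BIRC5 at −0.15, INCENP at −0.05, CENPF at −0.26, ZWINT at 0.10 and NUF2 at 0.45 in log2 ratio. CENPE was at −0.51, with 0.58 on one array and −1.09 to −0.62 on the others, and did not pass.

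CCNB1 was lower than control with AICAR too, at −1.10 and −1.38 in culture 1 and −1.0 and −0.95 in culture 2. The fitted ratio was −1.07 ± 0.107 (limma, adjusted p = 0.0152). CDC25C, the phosphatase that activates CDK1, had −0.72, −0.61, −1.04 and −0.87, all below 0, and −0.83 ± 0.128 after fitting (limma, adjusted p = 0.0376), and its 2 probes were at −0.86 and −0.81. CDK1 was at 0.12, above 0 in culture 1 (0.56) and below 0 in culture 2 (−0.32). The other cyclin genes lay between −0.61 for CKS2 and 0.23 for CKS1B, and CCNB2 had an adjusted p of 0.0478 in limma at a ratio of −0.53. BUB1B had ratios of −0.82, −0.62, −1.11 and −1.16 and a fitted value of −0.91 ± 0.141 (limma, adjusted p = 0.0377). The remaining checkpoint genes and kinases were not called, from PLK1 at −0.45 to MAD2L1 at 0.52, and MYBL2 was at 0.23.

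Of the chromosome structure genes, NCAPH had ratios of −0.86, −0.88, −0.64 and −0.76 with AICAR, all below 0, and a fitted value of −0.78 ± 0.089 (limma, adjusted p = 0.0198). MKI67 was at −1.01, with −0.67 in culture 1 and −1.35 in culture 2, and did not pass (limma, adjusted p = 0.056). SMC2, SMC4, NCAPD2 and TOP2A lay between −0.05 and 0.23. None of the 8 spindle motors and microtubule proteins passed, from KIF11 at −0.74 to TPX2 at 0.37. Among the genes of mitotic exit other than ESPL1, CDCA3 was at −0.69 (limma, adjusted p = 0.0333) and just short of the ratio required, and CDC20, PTTG1 and UBE2C were at −0.30, −0.01 and 0.30.

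KIF23, the kinesin subunit of centralspindlin, was the exception. Its ratios with AICAR were 2.00 and 2.05 in culture 1 and 1.12 and 1.08 in culture 2, all above 0, with swap partners nearly equal and the cultures apart. The fitted value was 1.57 ± 0.263 (limma, adjusted p = 0.0469). The call was lost with median-centred arrays (limma, adjusted p = 0.0516), with arrays scaled to a common spread (0.104), with robust variances (0.0527), with probes tested singly (0.0513) and without the 3 arrays that stand apart (0.0632). It was also lost without control 1 (ratio 1.10), AICAR 1 (1.29), AICAR 2 (1.84) or metformin 2 (1.59), with adjusted p-values of 0.0895, 0.23, 0.165 and 0.0507 in limma. With an extract or a culture left out the ratio lay between 1.05 and 2.08, and it stayed above 0 throughout. The other 6 genes of the central spindle were not called with AICAR, from KIF14 at −0.64 to PRC1 at 0.46.

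Set against each other, the treatments differed for 14 genes. The ratio of metformin to AICAR was lower for 11 genes (20.8%), whereas 2.01% of all transcripts and 2.58% of named genes were lower. It was higher for 3 genes (5.66%), a share close to the 4.59% of all transcripts and 5.51% of named genes that were higher. The median was −0.33 (−0.32 in culture 1 and −0.37 in culture 2), against −0.034 over all transcripts, and 29 genes (54.7%) were below 0 on all 4 arrays, as were 22.2% of all transcripts. In limma fits that left out 1 extract the count of calls was 4 without AICAR 1, 0 without AICAR 2 (30 genes at an unadjusted p below 0.05) and 8 without metformin 2. With each of the other 3 extracts left out it lay between 14 and 17.

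**Figure D4:**
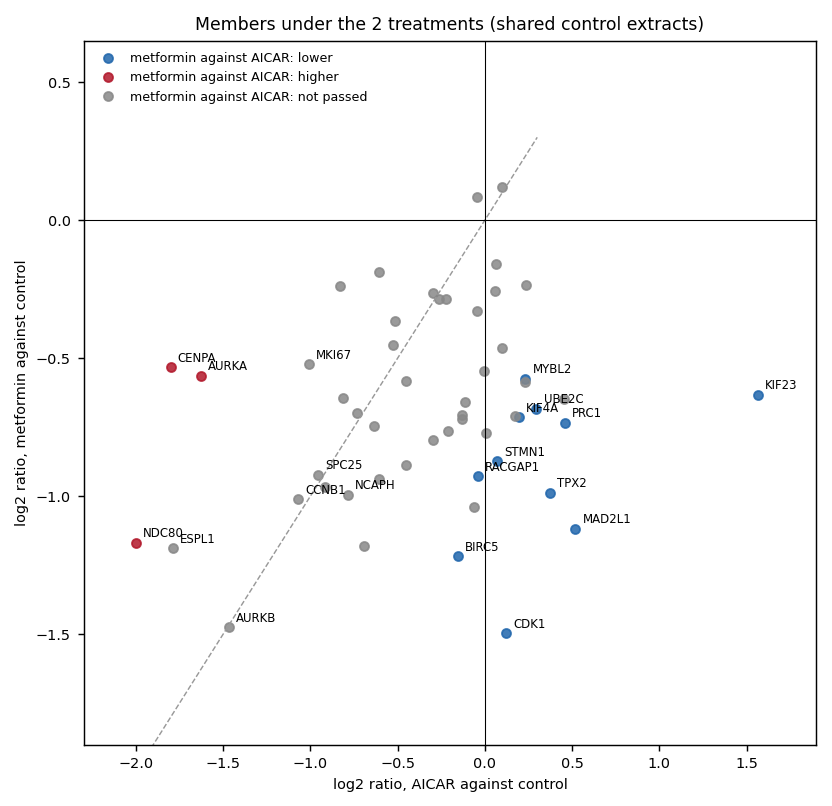
Fitted log2 ratio of each gene with AICAR (horizontal axis) and with metformin (vertical axis), both against the same control extracts. The dashed line marks equal ratios, and colours give the test of metformin against AICAR. AURKA, CENPA and NDC80 (red) lie above the line, and the 11 genes that were lower with metformin (blue), from BIRC5 to KIF23, lie below it.

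Of the 11, 4 belong to the 7 central spindle genes, whose median ratio of metformin to AICAR was −0.88. KIF23 had ratios of −2.24 and −2.40 in culture 1 and −1.94 and −2.23 in culture 2, the widest difference of the list, at −2.20 ± 0.263 (limma, adjusted p = 0.0137). PRC1 was at −1.19, KIF4A at −0.91 and RACGAP1 at −0.88. KIF20A, at −0.59, had an adjusted p of 0.0374 in limma and a ratio too small to pass, and ECT2 (−0.88) and KIF14 (−0.11) did not pass. These genes and those of the next paragraph were named after their values were seen.

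CDK1 and MAD2L1, which the cultures left uncertain against control, were lower with metformin than with AICAR on every array. For CDK1 the 4 ratios were −1.64, −1.45, −1.56 and −1.77, close together, with −1.62 ± 0.272 after fitting (limma, adjusted p = 0.0294). MAD2L1 had −1.59, −1.36, −1.66 and −1.96 and a fitted value of −1.64 ± 0.233 (limma, adjusted p = 0.02). TPX2 was at −1.36 ± 0.236, with −1.84 in culture 1 and −0.88 in culture 2, and its call was lost with direct ratios only and with arrays scaled to a common spread (limma, adjusted p = 0.0754 and 0.0648). BIRC5 (−1.06), UBE2C (−0.98), STMN1 (−0.94) and MYBL2 (−0.81) were lower as well. UBE2C was below 0 on each of its 3 probes, at −1.53, −0.69 and −0.72, and the probe at −0.69 fell just short of the ratio required.

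Higher with metformin than with AICAR were CENPA, AURKA and NDC80. CENPA had 1.29 and 1.19 in culture 1 and 1.01 and 1.56 in culture 2, all above 0, and a fitted value of 1.27 ± 0.077 (limma, adjusted p = 0.00418). AURKA was at 1.06 ± 0.087 and NDC80 at 0.83 ± 0.118. ESPL1, at 0.60, had an adjusted p of 0.0244 in limma and a ratio too small to pass. For other genes that were low with both drugs the difference was small, at −0.05 for BUB1B, −0.01 for AURKB, 0.03 for SPC25, 0.06 for CCNB1 and −0.21 for NCAPH, with standard errors of 0.141, 0.203, 0.089, 0.107 and 0.089.

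Of the other gene lists, DNA replication had the largest share of genes lower than control with metformin. In metformin-treated cells 18 of 37 DNA replication genes were lower and 0 were higher, with a median of −0.81, among them the helicase subunits MCM2 (−1.85), MCM4 (−1.42) and MCM10 (−1.62). With AICAR 5 of the 37 were lower. Between the drugs, 17 of the 37 (45.9%) were lower with metformin and 0 were higher, with a median of −0.63. Of the mitosis genes 20.8% were lower in that comparison, with a median of −0.33. Other kinetochore and checkpoint genes counted 4 lower of 22 with metformin, with a median of −0.19. These were SPC24 (−0.92), DSN1 (−1.09), CENPM (−1.03) and KNTC1 (−1.06), the last named after its value was seen. SPC24 and DSN1 were lower with AICAR too (−0.80 and −1.25), whereas CENPM (−0.06) and KNTC1 (−0.27) did not pass. Between the drugs, 5 of the 22 (22.7%) were lower with metformin and 0 were higher, with a median of −0.26. SPC24 pairs with SPC25 in the NDC80 complex, and DSN1 belongs to the MIS12 complex to which it binds. Of 23 other spindle, centrosome and cytokinesis genes, 4 were lower with metformin, with a median of −0.33, including TUBG1, gamma-tubulin (−1.05), and DLGAP5 (−0.81).

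Other lists cover the machinery that acts on the chromatids and the brakes on division. Against control, 1.23% of all transcripts were lower and 1.5% higher with metformin, and 2.89% were lower and 0.456% higher with AICAR. For metformin against AICAR 2.01% were lower and 4.59% higher. Of 14 subunits of the anaphase-promoting complex, ANAPC5 alone passed with metformin (−0.79) and none with AICAR. For the latter the count at an unadjusted p below 0.05 in limma was 2. Of 15 genes of cohesin and its regulators, CDCA5, or sororin, which protects cohesion, was lower with metformin (−1.45), and WAPL, which releases cohesin, was lower with AICAR (−1.02). Between the drugs 4 of these 15 genes passed. CDCA5 was lower with metformin than with AICAR (−1.51), while WAPL (1.04), the cohesin loader subunit MAU2 (0.81) and the acetyltransferase ESCO1 (1.31), named after its value was seen, were higher, which is 20% of the list against 4.59% of all transcripts. None of the 11 measured genes of DREAM and the RB family passed with metformin against control in limma, with 2 at an unadjusted p below 0.05, and the MuvB subunit LIN37 was lower with AICAR (−1.36). Between the drugs, TFDP1 was lower with metformin than with AICAR (−1.39) and LIN37 was higher (1.40). Among 10 brakes on G2, GADD45A, which inhibits CDK1 with cyclin B1, was higher with both drugs (2.63 and 2.17). CDKN1A, or p21, was higher with metformin (0.96), and the checkpoint kinase CHEK2 was lower (−0.85). Metformin was above AICAR for CDKN1A (1.29) and below it for WEE1 (−1.09), the kinase that inhibits CDK1.

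**Figure D5:**
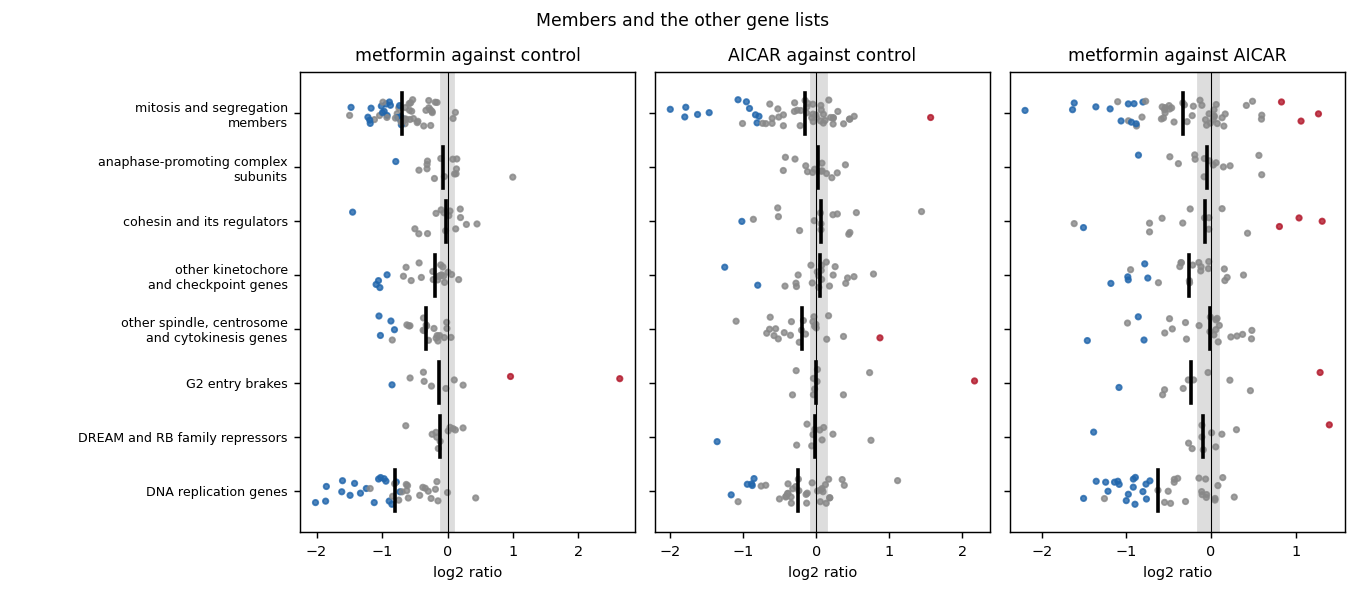
Fitted log2 ratio of every measured gene of the mitosis list and of 7 other lists for the 3 comparisons, with blue for genes that passed as lower, red for higher and grey for the rest. Black bars are medians and the grey band spans the middle quartiles of all 24546 transcripts. With metformin the median of the mitosis genes is −0.70 and that of the DNA replication genes is −0.81, while with AICAR they are −0.15 and −0.25.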

How the data were processed

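The authors deposited 1 column of ratios per array, taken here as log2. They had applied print-tip loess to each slide and then quantile normalization across slides with limma (version: not given in the sources used here). No source states the log base, which dye is the numerator or whether background was subtracted, and intensities were not analysed here, so that dim probes could not be filtered.

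Probes were named through the platform annotation and a RefSeq gene table by accession, then by symbol or synonym. Of 17711 annotated probes 17503 carried 1 of 14401 symbols, 117 whose accession and symbol named different genes and 91 with an ambiguous name were left unnamed, and an ambiguous probe listed as EPR-1 was not counted as BIRC5. The 61 probes of 53 genes were averaged per gene, which concerned 6 genes.

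Ratios were turned by the dye labels, dye-swap partners were averaged, and the 6 means were solved by least squares for the levels of the 6 extracts. A model with treatment and culture was fitted to all 24546 transcripts with limma 3.58.1 (R 4.3.3) at 2 residual and 2.88 prior degrees of freedom, with Benjamini-Hochberg adjustment over all of them. SE is the moderated standard error, with 1 value per gene shared by the 3 comparisons. Its precision is limited by how few cultures there are. A gene's direct ratio and the one obtained through the third treatment differed by a median of 0.0931 in culture 1 and 0.0671 in culture 2.

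The genes and lists were chosen with earlier results of these data known. Array values are given for the 2 genes of each role with the smallest p for metformin against control, and for genes that passed with AICAR. Values of other members, among them the array values of CDK1 and those for metformin of AURKB, were chosen after they were seen. Of each other list up to 3 genes with the smallest p among those that passed are named. The authors' own B statistics were not used. The fit was tested on simulated data. Alternatives were arrays as separate data points, a dye term, direct ratios only, no ratio threshold, arrays scaled to one spread, median-centred arrays, probes singly, robust variances, and leaving out the 3 arrays that stand apart, a culture or an extract.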

Additional observations from a re-analysis of the deposited data

How the results depend on the processing

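The number of calls depended on how the spread was estimated. Of 47 single ratios followed, 43 passed, and 0 of these changed sign under any alternative run. These 43 had been picked for passing in the same data, so a change of sign was unlikely from the start. Some alternatives, such as arrays as separate data points or no ratio threshold, also leave the fitted ratio as it was. The unchanged signs are therefore no test of direction. The fit holds culture as a replicate block, with 17 genes called for metformin, 12 for AICAR and 14 between the drugs, and a fit without the block was not possible because ratios exist only within a culture. For metformin, 26 genes were called with arrays as separate data points and 26 with a dye term, both of which count dye-swap partners as replicates, 7 without the 3 arrays that stand apart, and 0 with direct ratios only, where 41 genes had an unadjusted p below 0.05 in limma. For AICAR, 7 genes were called without those 3 arrays. Arrays scaled to one spread lost 5 of the 17 calls for metformin (AURKB, BIRC5, HMMR, KIF20A and PRC1), 3 of the 12 for AICAR (AURKB, CDC25C and KIF23) and 2 of the 14 between the drugs (RACGAP1 and TPX2). Probes tested singly lost HMMR and NUSAP1 for metformin and KIF23 for AICAR, robust variances lost HMMR and KIF23, median-centred arrays lost KIF23, and direct ratios lost NDC80, RACGAP1 and TPX2 between the drugs. Leaving out 1 extract, an alternative chosen after seeing the data, leaves 1 residual degree of freedom. It gave 0 calls for metformin in all 6 fits (33 to 42 genes at an unadjusted p below 0.05 in limma), 0 to 12 for AICAR and 0 to 17 for metformin against AICAR. The median ratio of the genes lay between −0.81 and −0.60 for metformin, between −0.32 and −0.13 for AICAR and between −0.40 and −0.26 for metformin against AICAR when an extract or a culture was left out. For the last comparison it was −0.38 with direct ratios only and −0.42 with arrays scaled to one spread. Without a culture there is no test. No filter on dim probes and no other background correction could be run on ratios.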
